A study of Rattus norvegicus with 6 samples.

Results

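The genes of the insulin-like growth factor (IGF) binding proteins were followed in rat testis, as 8 rows of the deposited gene table chosen by symbol (Igfbp1 to Igfbp7 and Igfals) among 35291 genes. Each symbol labelled a single row. Of the RNA-Seq libraries of testicular tissue, 3 came from diabetic Sprague-Dawley rats (DM) and 3 from normal rats (Nor) of the same outbred strain. The study does not state whether each library came from a single rat. The DM rats had been fed a high-fat diet, had received streptozotocin (STZ) once at 35 mg/kg, a toxin of pancreatic beta cells, and were sampled 8 weeks later, and only rats with persistently high blood glucose were used. The Nor rats had received citrate buffer, and whether they shared the diet and how old the rats were is not given in the sources used here. Injected STZ reaches other organs as well as the pancreas, so the model does not separate diabetes from exposure to the drug.

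IGFBP1 to IGFBP6 hold IGF1 and IGF2 with high affinity outside cells and set how much of these ligands reaches the IGF1 receptor. IGFBP7 binds IGFs weakly and is known as a protein of vessel walls and matrix, and Igfals encodes the acid-labile subunit that joins IGFBP3 or IGFBP5 and an IGF into a long-lived complex in blood. Proteases such as PAPP-A release IGF by cutting the binding proteins. In the testis, IGF1 is made locally and acts on Leydig cells, the interstitial cells that produce testosterone, as well as on Sertoli and germ cells.

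The values are FPKM, fragments scaled to transcript length and library size, so levels can be set beside each other between genes. They summed to between 453304 and 478211 FPKM in the 6 libraries, and the number of reads is unknown. Relative depth, read from genes below 1 FPKM, lay between 0.966 and 1.09 in DM and between 0.893 and 1.02 in Nor libraries, against a mean of 1. The tissue label was checked against marker genes, because the extraction text in the labels speaks of an adipose type. Summed spermatid markers (protamines, transition proteins and acrosome genes) lay between 7436 and 10115 FPKM, and 5 adipocyte markers together between 5.48 and 8.17 FPKM.

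In DM testes the summed FPKM of the 8 genes was 27.3 ± 3.92 (SD, n = 3), against 44.6 ± 5.06 (SD, n = 3) in Nor testes, or 0.611 times the Nor level. All 6 members with a mean of at least 0.5 FPKM had a lower mean in DM, the direction of 55.6% of all genes tested, and for Igfbp2, Igfbp4, Igfbp5 and Igfbp7 every DM library was below every Nor library, as was the case for 8.42% of all genes tested. Igfbp5 had the largest difference of the 6, with DM at 0.348 times the Nor mean. Igfals, under the 0.5 FPKM limit, was the exception in direction and was higher in every DM library. Because these are whole testes, fewer cells of a type and less RNA per cell cannot be told apart.

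To compare DM with Nor, limma was fitted to log2(FPKM + 0.1) of the 20338 genes averaging 0.5 FPKM or more. Each log2 difference given below is DM minus Nor on that scale, which understates changes of low genes. None of the 6 members tested reached an adjusted p-value below 0.05 (limma, Benjamini-Hochberg over all genes tested), a level that 0.0344% of all genes tested reached. An unadjusted p-value below 0.05 with lower DM values was given to 3 of the 6, Igfbp2, Igfbp5 and Igfbp7, against 4.99% of all genes tested. The size and p-value used in the study for mRNAs, a log2 difference of 1 or more in either direction at an unadjusted p-value below 0.05, was met by Igfbp5 only, and 0.846% of all genes tested met it with lower DM values. The study applied these limits to DESeq2 results, so meeting them with limma does not place Igfbp5 among the mRNAs it reported. The median log2 difference was -0.68 over the 6 members and -0.021 over all genes tested. The libraries are numbered replicates of each condition, and the p-values measure only the spread between them. With 3 libraries against 3, the exact permutation test quoted below for single genes cannot go under 0.1.

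**Figure D1:**
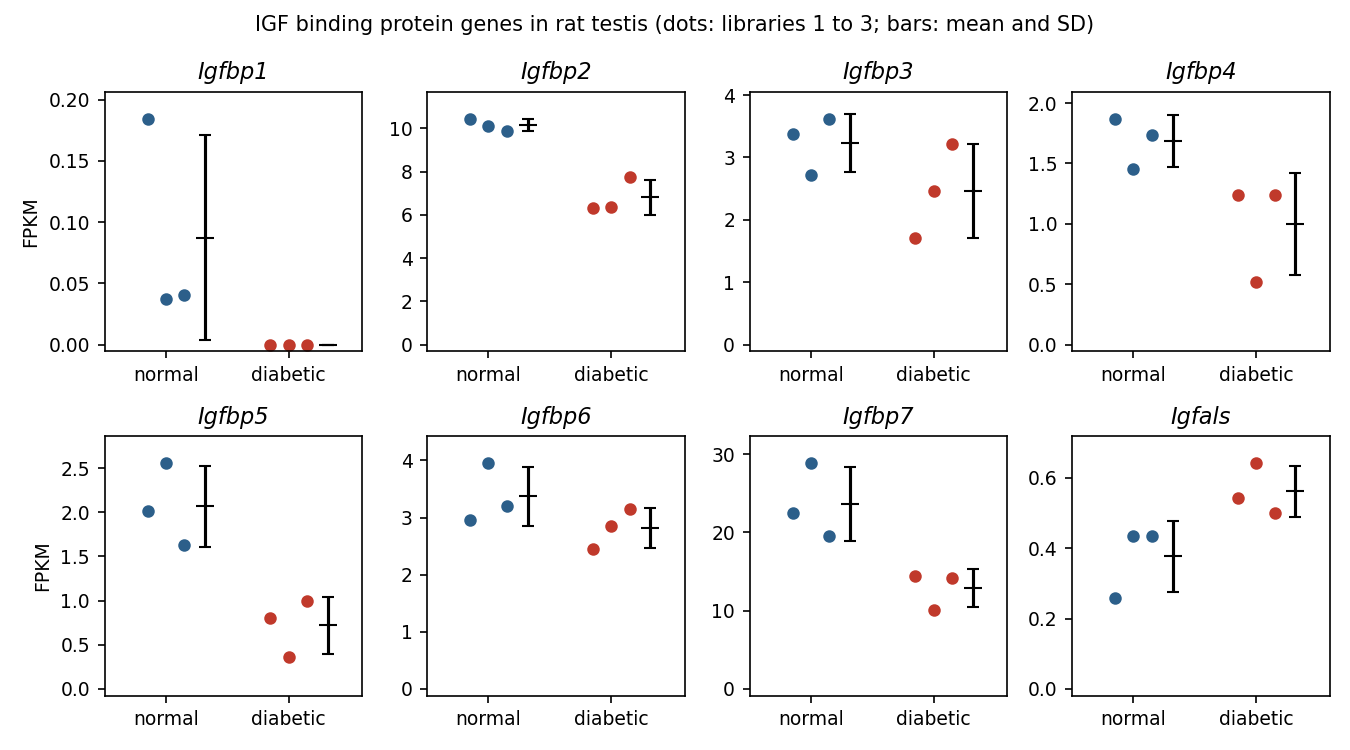
FPKM of each of the 8 genes (vertical axis from near 0, scaled per gene) in 3 Nor libraries (blue) and 3 DM libraries (red), in the order 1 to 3, with the mean and SD of each group in black. Igfbp2, Igfbp4, Igfbp5 and Igfbp7 have all DM dots below all Nor dots, Igfbp3 and Igfbp6 overlap, and Igfals has all DM dots above; Igfbp1 is listed at 0 in the DM libraries.

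Igfbp7 (ENSRNOG00000002050) was the most abundant member in both groups. It was at 14.4, 10.1 and 14.2 FPKM in DM libraries 1 to 3 and at 22.5, 28.8 and 19.6 FPKM in Nor libraries 1 to 3. The groups did not overlap, with DM 2 the lowest and Nor 2 the highest of the 6. Means were 12.9 ± 2.46 and 23.6 ± 4.73 FPKM (SD, n = 3 each), and the log2 difference was -0.87 (95% confidence interval -1.30 to -0.43; adjusted p = 0.331 by limma; exact permutation test, p = 0.1). It made up 47.2% ± 4.72 of the summed FPKM of the 8 genes in DM and 52.7% ± 4.48 in Nor (SD, n = 3 each).

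Igfbp2 (ENSRNOG00000016957) encodes a binding protein that also attaches to integrins at the cell surface, and was second in level. Its values were 6.34, 6.35 and 7.75 FPKM in DM and 10.4, 10.1 and 9.88 FPKM in Nor. The Nor libraries lay close together and all above the DM libraries. Means were 6.81 ± 0.811 and 10.1 ± 0.276 FPKM (SD, n = 3 each), and the log2 difference was -0.57 with a standard error of 0.10 (95% confidence interval -0.82 to -0.33). Its unadjusted p-value of 0.000776 ranked 59 among the 20338 genes tested, with an adjusted value of 0.266 (limma).

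Igfbp5 (ENSRNOG00000017206), which encodes a binding protein of the extracellular matrix, was at 0.798, 0.363 and 0.998 FPKM in DM and at 2.01, 2.56 and 1.63 FPKM in Nor. The highest DM library was below the lowest Nor library, and DM 2 was again the lowest. Means were 0.719 ± 0.325 and 2.07 ± 0.463 FPKM (SD, n = 3 each). The log2 difference was -1.47 with a standard error of 0.36 (95% confidence interval -2.31 to -0.63; unadjusted p = 0.00419 and adjusted p = 0.419 by limma). With each library left out in turn it lay between -1.73 and -1.10 and met the study's size and p-value in all 6 fits. With a pseudocount of 1 in place of 0.1 it was -0.84 and no longer met the size.

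Igfbp4 (ENSRNOG00000010635) encodes an inhibitory binding protein that PAPP-A cleaves. It was at 1.24, 0.515 and 1.24 FPKM in DM and at 1.87, 1.45 and 1.74 FPKM in Nor. The groups were separate, by a gap smaller than the spread within DM, where DM 2 stood below the other two. The log2 difference was -0.78 (95% confidence interval -1.57 to 0.0079; adjusted p = 0.671 by limma), and it was -0.41 without DM 2.

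Igfbp3 (ENSRNOG00000061910), the main IGF carrier of blood, was at 1.71, 2.46 and 3.22 FPKM in DM and at 3.38, 2.72 and 3.62 FPKM in Nor. DM 3 exceeded Nor 2, so the groups overlapped. The log2 difference was -0.42 (95% confidence interval -0.97 to 0.14; adjusted p = 0.787 by limma; exact permutation test, p = 0.2), with -0.19 without DM 1 and -0.62 without DM 3. Igfbp6 (ENSRNOG00000010977), whose product prefers IGF2 over IGF1, was at 2.45, 2.86 and 3.14 FPKM in DM and at 2.96, 3.95 and 3.21 FPKM in Nor. These groups overlapped as well, since DM 3 exceeded Nor 1. The log2 difference of Igfbp6 was -0.25 (95% confidence interval -0.62 to 0.13; adjusted p = 0.812 by limma; exact permutation test, p = 0.2), and it was -0.13 without Nor 2. For both genes the intervals hold 0 and also decreases of the size estimated for Igfbp2.

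The last 2 members were below the limit of 0.5 FPKM and outside the limma comparison. Igfals (ENSRNOG00000015061) was at 0.542, 0.642 and 0.502 FPKM in DM and at 0.260, 0.436 and 0.435 FPKM in Nor. Every DM library was above every Nor library, by a gap smaller than the spread within either group. Means were 0.562 ± 0.0721 and 0.377 ± 0.101 FPKM (SD, n = 3 each), a difference of 0.49 in mean log2(FPKM + 0.1) (exact permutation test, p = 0.1). Igfbp1 (ENSRNOG00000058780), known in liver as the member whose transcription insulin represses, was listed at 0 in all 3 DM libraries. In Nor it was at 0.184, 0.0369 and 0.0408 FPKM, the lowest level of the 8 genes in either group. Multiplied by relative depth, Nor 1 was at 5.15 times and Nor 2 at 1.03 times the value of Nor 3, the smallest. With the number of reads unknown, levels this low cannot be set apart from 0.

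The order of levels was Igfbp7, Igfbp2, Igfbp6 and Igfbp3 from the top in both groups. Igfbp7 and Igfbp2 were each separate from the next gene in every library of a group, whereas Igfbp6 and Igfbp3 overlapped in both groups. Below them Igfbp4 and Igfbp5 overlapped in both groups, with the mean of Igfbp5 the higher of the pair in Nor and that of Igfbp4 in DM. Igfals followed, overlapping Igfbp5 in DM and separate from Igfbp4 in Nor.

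**Figure D2:**
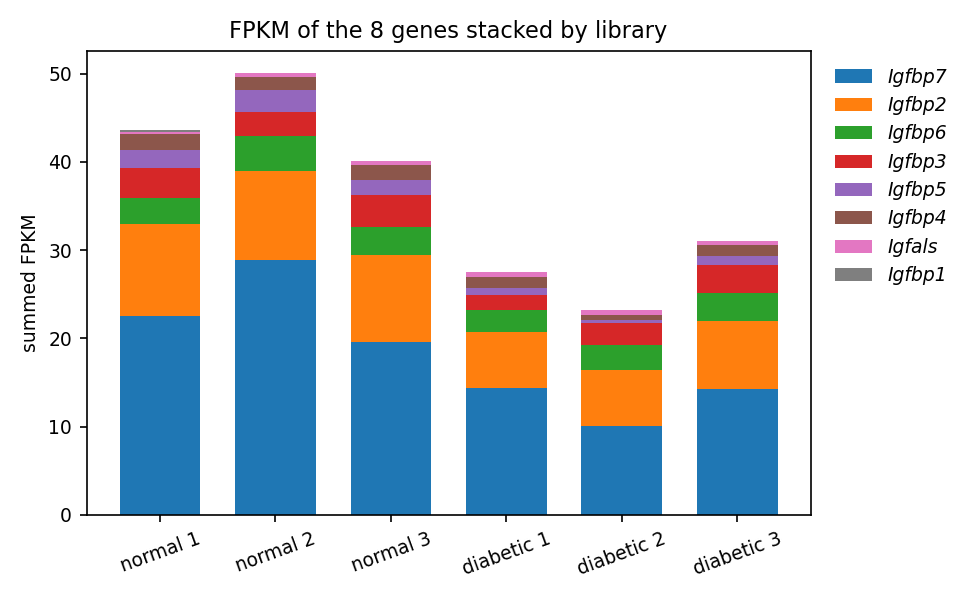
FPKM of the 8 genes stacked for each library (vertical axis in FPKM from 0). The stacks reach 23.3 to 31.1 FPKM in the DM libraries and 40.1 to 50.1 FPKM in the Nor libraries, and Igfbp7 and Igfbp2 fill most of each.

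Without Igfbp7, the summed FPKM of the other members was 13.1, 13.2 and 16.9 in DM and 21.1, 21.3 and 20.6 in Nor, so the groups stayed separate. The share of Igfbp5 in the family was 2.56% ± 0.878 in DM and 4.59% ± 0.515 in Nor (SD, n = 3 each). That of Igfbp6 was 10.4% ± 1.72 in DM and 7.55% ± 0.664 in Nor, and that of Igfals 2.11% ± 0.586 and 0.849% ± 0.244. For these 3 genes the shares did not overlap between the groups. The same held for Igfbp1, at 0% in DM and 0.0737% to 0.422% in Nor, from levels close to 0. Shares of 1 sum depend on each other, and no such count over other genes was taken.

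Whether members differed from each other in their response was examined with the log2 ratio of each pair of the 6 tested members within a library, 15 pairs in all. The ratio of Igfbp5 to Igfbp6 averaged -1.91 ± 0.661 in DM and -0.69 ± 0.211 in Nor (SD, n = 3 each), a difference of -1.22 with a standard error of 0.40. The groups did not overlap for this pair, nor for 4 others: Igfbp5 was also lower in DM relative to Igfbp2, Igfbp4 and Igfbp7, and Igfbp7 relative to Igfbp6. Each of these 5 pairs had an exact permutation p = 0.1, the smallest possible, and a Benjamini-Hochberg adjusted p of 0.3 over the 15 pairs. Pairs that share a gene are not independent, and the share of separate pairs among other genes was not taken. For the other 10 pairs, which include Igfbp2 against Igfbp7 (difference 0.30, standard error 0.22), the groups overlapped.

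For the 4 members whose groups did not overlap with lower DM values, and for Igfbp1, the bases in front of the gene start are shown, since they are the regulatory sequence next to the genes that were lower together. They were taken from RefSeq on assembly GRCr8, which the deposited table does not name, as 250 bases up to the annotated start, or 195 bases for Igfbp7. They are written 5′ to 3′ in the direction of transcription, and capitals mark motifs found on either strand.
Igfbp2 promoter, chr9:81864561-81864810, plus strand: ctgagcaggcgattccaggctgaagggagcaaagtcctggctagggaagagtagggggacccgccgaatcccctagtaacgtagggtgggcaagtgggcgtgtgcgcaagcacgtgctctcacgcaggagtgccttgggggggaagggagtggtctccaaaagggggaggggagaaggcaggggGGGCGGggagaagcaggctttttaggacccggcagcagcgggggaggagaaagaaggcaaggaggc
Igfbp4 promoter, chr10:84491221-84491470, plus strand: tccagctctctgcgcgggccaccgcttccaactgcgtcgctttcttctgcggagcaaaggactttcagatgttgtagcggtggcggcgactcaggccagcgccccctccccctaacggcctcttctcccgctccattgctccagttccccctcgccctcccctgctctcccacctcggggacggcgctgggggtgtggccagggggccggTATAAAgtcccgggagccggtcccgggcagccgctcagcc
Igfbp5 promoter, chr9:81914188-81914437, minus strand: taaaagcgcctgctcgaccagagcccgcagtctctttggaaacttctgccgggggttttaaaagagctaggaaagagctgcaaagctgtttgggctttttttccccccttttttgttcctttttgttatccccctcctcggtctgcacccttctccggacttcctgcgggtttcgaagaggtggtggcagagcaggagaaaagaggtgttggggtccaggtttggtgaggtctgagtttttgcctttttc
Igfbp7 promoter, chr14:31091486-31091680, plus strand: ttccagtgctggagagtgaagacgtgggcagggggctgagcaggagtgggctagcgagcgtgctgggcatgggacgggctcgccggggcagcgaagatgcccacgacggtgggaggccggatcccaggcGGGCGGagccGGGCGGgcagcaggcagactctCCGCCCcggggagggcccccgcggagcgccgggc
Igfbp1 promoter, chr14:86261027-86261276, plus strand: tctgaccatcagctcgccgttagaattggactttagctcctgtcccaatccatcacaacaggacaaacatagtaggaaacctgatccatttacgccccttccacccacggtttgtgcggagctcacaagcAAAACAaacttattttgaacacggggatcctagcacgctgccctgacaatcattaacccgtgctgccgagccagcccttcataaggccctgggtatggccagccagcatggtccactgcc

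The motifs searched were the TATA box TATAAA, the GC box GGGCGG, the core AAAACA shared by insulin response elements, the steroidogenic factor 1 site AAGGTCA and the androgen receptor half-site TGTTCT. Igfbp2 held a GC box and Igfbp7 held 3, a motif present in 32.5% of 11137 protein-coding genes with 250 such bases and in 32.7% of 13548 with 195. Igfbp4 held a TATA box, present in 15.5% of the windows of 250 bases. Igfbp5 held none of the 5 motifs, and no motif was common to the 4 genes. Igfbp1 held AAAACA, starting 120 bases before the gene start, a sequence found in 21.5% of windows. Of the members not printed here, Igfbp6 also held AAAACA, overlapping an androgen receptor half-site, and Igfbp3 held none of the motifs. GC content was 64.0% for Igfbp2, 68.8% for Igfbp4, 51.6% for Igfbp5 and 75.4% for Igfbp7, against a median of 51.2% over windows of 250 bases. The Igfbp7 value covers 195 bases, a length for which no median was taken.

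The ligands and receptors of the pathway were measured in the same libraries. Igf1 was at 4.90, 3.18 and 2.16 FPKM in DM and at 6.60, 4.23 and 4.46 FPKM in Nor, with overlapping groups. Its log2 difference was -0.61 (95% confidence interval -1.33 to 0.10; adjusted p = 0.735 by limma), and it was -0.91 without DM 1 and -0.33 without DM 3. Igf2, at 0.937 ± 0.185 FPKM in DM and 1.34 ± 0.328 FPKM in Nor (SD, n = 3 each), had separate groups and a log2 difference of -0.46 (95% confidence interval -1.06 to 0.14), which was -0.28 without Nor 2. The summed binding proteins were 4.61, 5.96 and 9.76 times the summed FPKM of Igf1 and Igf2 in DM, and 5.63, 8.43 and 7.17 times in Nor. That ratio overlapped between the groups, unlike the summed binding proteins themselves. Without Igfbp7, whose product binds IGFs weakly, it was 2.19, 3.38 and 5.29 in DM and 2.72, 3.57 and 3.67 in Nor, also overlapping. The mean ratio was 6.78 in DM and 7.07 in Nor with Igfbp7, and 3.62 and 3.32 without it. Igf1r, the receptor that signals for both ligands, was at 3.85 ± 0.306 FPKM in DM and 3.86 ± 0.0755 FPKM in Nor (SD, n = 3 each), with a 95% confidence interval of the log2 difference from -0.26 to 0.25. Igf2r, which clears IGF2, had a log2 difference of 0.055 (95% confidence interval -0.22 to 0.33). Insr, the insulin receptor gene, was at 1.43 ± 0.227 and 1.94 ± 0.130 FPKM (SD, n = 3 each) with separate groups, a log2 difference of -0.43 and adjusted p = 0.666 (limma).

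**Figure D3:**
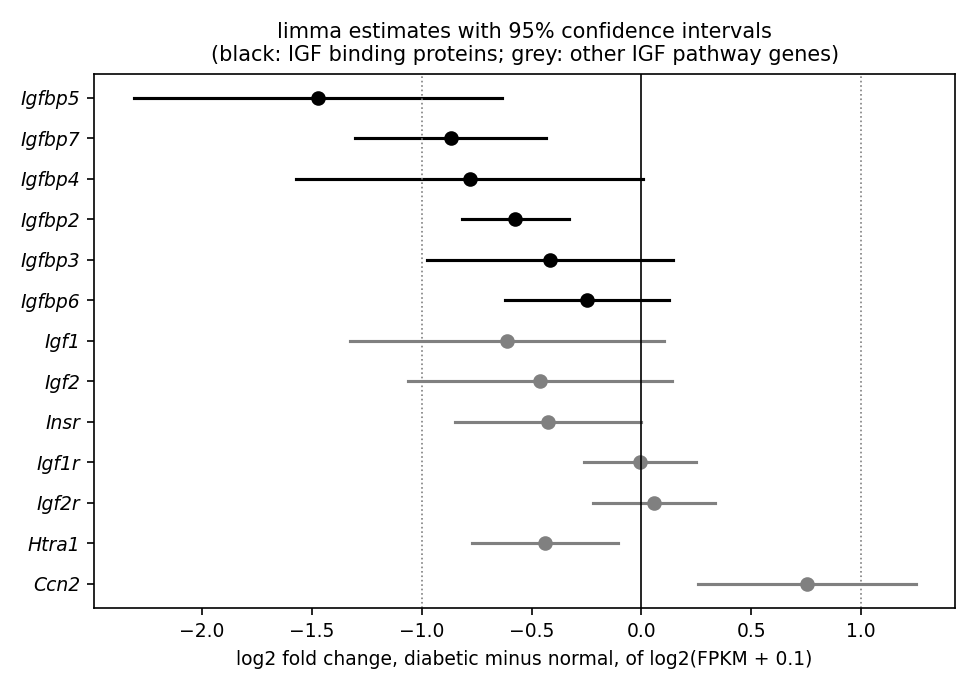
limma log2 differences (horizontal axis, DM minus Nor on the log2(FPKM + 0.1) scale) with 95% confidence intervals for the 6 members tested (black) and 7 other genes of the IGF pathway (grey), with dotted lines at -1 and 1. The intervals of Igfbp5, Igfbp7, Igfbp2, Htra1 and Insr lie below 0, that of Igf1r spans -0.26 to 0.25, and that of Ccn2 lies above 0; none of these genes had an adjusted p-value below 0.05.

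Of 18 proteases of binding proteins and their inhibitors, 9 were tested and none reached an adjusted p-value below 0.05 with limma. Unadjusted p-values below 0.05 with lower DM values were given to 4 of the 9, Htra1, C1r, C1s and Ctsd, against 4.99% of all genes tested. Htra1, a serine protease that cuts IGFBP5, was at 4.35, 3.16 and 3.32 FPKM in DM and at 5.03, 4.74 and 4.88 FPKM in Nor, with separate groups and a log2 difference of -0.44 (adjusted p = 0.559 by limma). C1r and C1s encode the proteases of complement C1, and Ctsd encodes the lysosomal protease cathepsin D, with log2 differences of -0.59, -0.47 and -0.53. The pappalysins and their inhibitors were too low to test: mean FPKM over 3 libraries was 0.127 in DM and 0.205 in Nor for Pappa, 0.0623 and 0.0569 for Pappa2, 0.106 and 0.0718 for Stc1, and 0.0841 and 0.164 for Stc2. Groups overlapped for these 4 genes. Among the other proteases below the limit, Mmp2 was lower in every DM library (mean 0.134 FPKM against 0.417 in Nor). Mmp7 was higher in every DM library (0.218 against 0.109).

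Of 9 genes of proteins related to IGFBPs, 2 were tested, and both had higher means in DM. Ccn2, listed under its older symbol Ctgf and encoding connective tissue growth factor, was at 2.54, 2.98 and 3.43 FPKM in DM and at 1.99, 1.96 and 1.29 FPKM in Nor. The groups were separate in the direction opposite to the 4 binding proteins, with a log2 difference of 0.75 (95% confidence interval 0.26 to 1.25; adjusted p = 0.487 by limma). Ccn3, listed as Nov, overlapped between groups with a log2 difference of 0.24. Below the limit of 0.5 FPKM, Ccn6 (listed as Wisp3) was lower in every DM library, with a mean of 0.247 FPKM against 0.471 in Nor. Ccn1 (listed as Cyr61) was higher in every DM library (0.491 against 0.306). C1r, C1s, Ctsd, Mmp2, Mmp7, Ccn1, Ccn2, Ccn3 and Ccn6 were singled out after their values were seen.

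Markers of some testicular cell types moved with the same groups. The 6 Leydig markers in the table (Cyp11a1, Cyp17a1, Hsd3b2, Star, Insl3 and Lhcgr) all had separate groups with lower DM values, against 8.42% of all genes tested. Of these, 5 met the study's size and p-value, and only Cyp17a1 had an adjusted p-value below 0.05, at 0.0415 (limma). The summed level of the 6 was 35.5 to 62.9 FPKM in DM and 107 to 143 FPKM in Nor, with none at 0. Ordered by this sum, the libraries ran DM 2, DM 1, DM 3, Nor 3, Nor 1 and Nor 2, which was also their order for Igfbp5. For Igfbp7 the order was the same except that DM 1 and DM 3 changed places. Igfbp4 and Igfbp2 did not follow it: Igfbp4 was lowest among the Nor libraries in Nor 2, which had the highest Leydig sum, and Igfbp2 was highest in Nor 1 and lowest in DM 1. The order of the Leydig sum was not particular to these markers. Among the 6, only Star had it as a single gene, and C1r and Ctsd, which are not Leydig markers, had it too. Relative to Nor, the mean summed Leydig level in DM was 0.393 times, against 0.348 times for Igfbp5 and 0.546 times for Igfbp7.

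Of 6 macrophage markers, 3 (Cd68, Csf1r and C1qa) had separate groups with lower DM values, against 8.42% of all genes tested. The sum of all 6 was 23.2 to 30.0 FPKM in DM and 31.0 to 32.2 FPKM in Nor. The sums of the other somatic lists overlapped: 6 smooth muscle markers reached 105 FPKM at most in DM and lay between 96.3 and 121 FPKM in Nor, 5 endothelial markers between 6.22 and 6.82 and between 6.56 and 8.17 FPKM, and 9 Sertoli markers between 318 and 337 and between 271 and 343 FPKM. Single genes carried much of 2 of these sums. Clu, a Sertoli marker, averaged 262 FPKM in DM and 245 FPKM in Nor, and Mrc1, a macrophage marker, 20.8 and 21.6 FPKM. Among the Sertoli markers, Wt1 was higher in every DM library, and Inha had a lower DM mean with an unadjusted p-value of 0.0293 (limma). Des, a smooth muscle marker, was lower in every DM library, with a mean of 2.78 FPKM against 3.35 FPKM in Nor. No marker of these 5 lists was at 0 in all libraries. The part of these cell types in the values of the binding proteins was not tested.

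**Figure D4:**
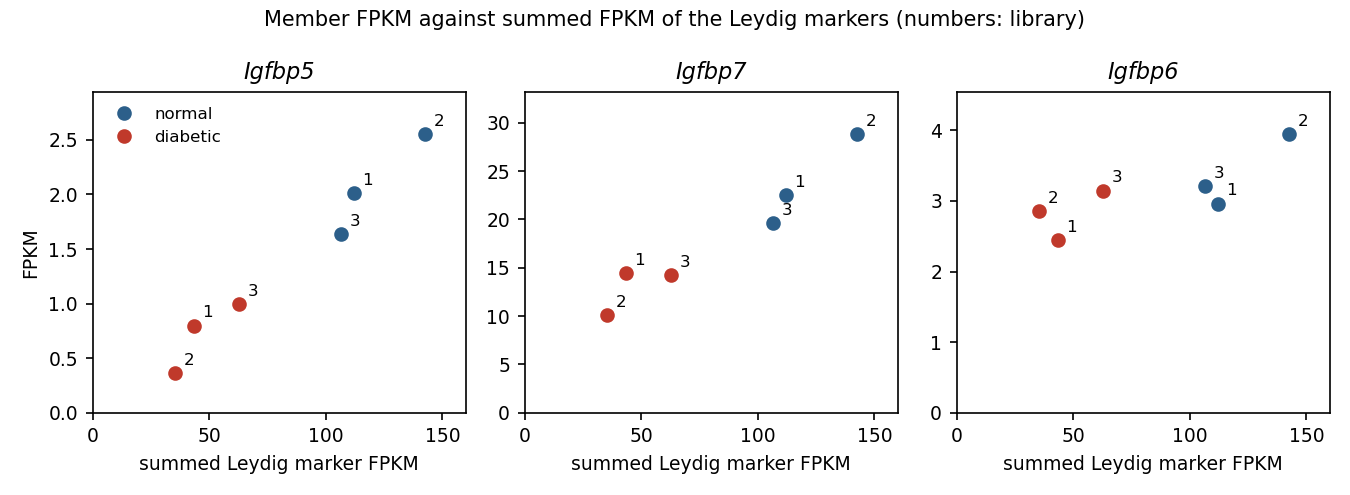
FPKM of Igfbp5, Igfbp7 and Igfbp6 (vertical axes from 0) against the summed FPKM of 6 Leydig markers (horizontal axis) in the DM (red) and Nor (blue) libraries, numbered by replicate. Igfbp5 ran from 0.363 FPKM in DM 2 to 2.56 FPKM in Nor 2, the libraries with the lowest and highest Leydig sum, while Igfbp6 overlapped between the groups.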

How the data were processed

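Testis RNA was sequenced as paired-end libraries on an Illumina HiSeq instrument. The authors checked reads with FastQC, screened rRNA with BWA, aligned with STAR, assembled with StringTie and deposited FPKM per gene; tool versions, the genome build and how transcripts were combined into genes are not given in the sources used here. They screened transcripts with DESeq2, which needs counts and was not repeated. FPKM values were transformed to log2(FPKM + 0.1), and the 20338 of 35291 genes averaging 0.5 FPKM or more were compared with limma 3.58.1 (eBayes with trend, two-sided, no replicate block) in R 4.3.3. Single genes and pair ratios were given exact two-sided permutation tests (scipy 1.17.1). Steps were tested on simulated data.

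Members and gene lists were chosen with earlier results of these data known, and the pair ratios and promoter motifs after the values above were seen. All 8 members were named, with 10 fixed pathway genes and the 3 genes most like each member above 5 FPKM. Lists also covered spermatogonia, spermatocyte and hepatocyte markers: of 5, 5 and 3 genes tested, 1, 0 and 1 had an unadjusted p-value below 0.05 from limma, and Ttr was at 0 throughout. Of 8 Sertoli, 6 smooth muscle, 4 endothelial and 6 spermatid genes tested, 1, 0, 0 and 0 did. Of 6 Leydig, 6 macrophage and 2 adipocyte genes tested, 6, 3 and 0 did. Among all 20338 genes tested, 1517 had an unadjusted p-value below 0.05 (limma). Alternatives were pseudocounts of 1 and 0.01, no filter, a limit of 1 FPKM, TPM and median-ratio scaling, eBayes without trend, the replicate block, protein-coding genes only, genes of the same symbol summed, and leaving out each library. Small RNA libraries, serum and cell experiments were not analysed here.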

Additional observations from a re-analysis of the deposited data

How the results depend on the processing

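The log2 differences of the 6 members tested kept their sign in all 96 of the fits run for them under the 16 alternatives, and none reached an adjusted p-value below 0.05. The sign could not change where only the filter, the genes tested, same-symbol summing, the trend or the replicate block was altered, since the difference stays the same. For Igfbp2, Igfbp4, Igfbp5 and Igfbp7, whose groups were separate, another pseudocount or a left-out library could not change it either. The lowest adjusted p-values from limma came from testing protein-coding genes only, at 0.0637 for Igfbp2, 0.0854 for Igfbp7 and 0.127 for Igfbp5. That fit adjusted over 12242 genes in place of 20338. Unadjusted limma p-values were lower as well: 0.000290 against 0.000776 for Igfbp2, 0.000588 against 0.00204 for Igfbp7 and 0.00114 against 0.00419 for Igfbp5. How much each of these added was not tested. The count of members meeting the study's size and p-value was 1 (Igfbp5) and became 0 with a pseudocount of 1, which by construction shrinks changes of low genes. Igf1r changed sign to 0.017 under median-ratio scaling and ranged from -0.063 to 0.048 with each library left out, with 0.0078 without Nor 1; Igf2r ranged from -0.0096, without DM 2, to 0.15. The difference in the log2 of the summed FPKM, -0.71, ranged from -0.81 to -0.60 with each library left out.

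Both groups carry replicate numbers 1 to 3, and the deviations of same-numbered libraries correlated at 0.106, 0.0153 and 0.0979 across genes. DM 1 correlated best with Nor 1 and DM 3 with Nor 3, while DM 2 also correlated best with Nor 3, at 0.0318. With the number as a block, limma gave adjusted p-values of 0.413 for Igfbp2, 0.481 for Igfbp7 and 0.510 for Igfbp5, and the counts of members were as without it. The unknown read depth limits what can be said of Igfbp1 and Igfals.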

Other observations

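Among 8903 genes with a symbol and a mean of at least 5 FPKM, those with the profile most like Igfbp7 over the 6 libraries were Ephx1, Gstm7 and Tst, with Pearson correlations of log2 values of 0.996, 0.993 and 0.993. Ephx1 encodes microsomal epoxide hydrolase, Gstm7 a glutathione S-transferase and Tst the mitochondrial enzyme thiosulfate sulfurtransferase. Ephx1 was at 60.8 ± 4.42 FPKM in DM and 74.2 ± 5.12 FPKM in Nor (SD, n = 3 each). The profiles most like Igfbp2 were those of Cp, the gene of the copper carrier ceruloplasmin (0.996), the unnamed gene AABR07032747.1 (0.995) and Clec2g (0.986). Cp was at 4.41 ± 0.430 FPKM in DM and 6.93 ± 0.299 FPKM in Nor (SD, n = 3 each). These are descriptions over 6 points that share the split into DM and Nor, picked as the highest of many.

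Among the members themselves, Igfbp5 and Igfbp7 had the most similar profiles over the 6 libraries, with a correlation of 0.982, and Igfbp4 and Igfbp6 the least, at 0.281. In RefSeq (GRCr8), Igfbp2 and Igfbp5 are adjacent protein-coding genes on chromosome 9, and Igfbp1 and Igfbp3 are adjacent on chromosome 14. Igfbp2 and Igfbp5 both had lower values in all DM libraries, at 0.672 and 0.348 times the Nor mean. The gene that follows Igfbp5 there is Tnp1, one of the spermatid markers. It was at 2295.5 ± 189.9 FPKM in DM and 2426.5 ± 519.3 FPKM in Nor (SD, n = 3 each), and its groups overlapped.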
